A study of Rattus norvegicus with 9 samples.

Results

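The 8 genes described here carry sodium, protons, bicarbonate and potassium across the membranes of kidney tubule cells: Atp1b1, Fxyd2, Fxyd4, Slc9a3, Slc9a8, Slc4a4, Kcnj15 and Kcnj16. They were taken by symbol from a table of 36267 features, where each symbol stood in 1 row, and all 8 were among the 16731 features that reached 1 CPM in 3 or more libraries and were tested. CPM is the read count of a gene scaled to the total of its library. Whole kidneys of 9 rats weighing 180 to 200 g were sequenced, 3 rats in each of 3 groups. Control rats were untreated. In contrast-induced acute kidney injury (CIAKI), rats received the loop diuretic furosemide by gavage (200 mg/kg), were dehydrated for 6 h and were then injected through a vein with iopromide, an iodinated X-ray contrast medium (370 mg I/mL, 15 mL/kg). Rats of the icariin group underwent the same protocol after 3 days of icariin, a plant flavonoid glycoside, at 100 mg/kg once daily by gavage. Furosemide, dehydration and contrast medium were given together, so their effects cannot be told apart, and no group received icariin without them. The labels used here name no strain, age or time of kidney removal.

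The sodium pump (Na,K-ATPase) of the basolateral membrane drives most solute transport in the tubule. It is built from a catalytic alpha and a glycosylated beta subunit, to which small FXYD proteins bind as regulators. In the proximal tubule, sodium enters from the lumen partly through the sodium-proton exchanger NHE3 in return for protons, bicarbonate leaves to the blood side through the cotransporter NBCe1, and basolateral inward rectifier potassium channels let pumped potassium flow back out. The genes cover the beta subunit (Atp1b1), the FXYD regulators Fxyd2 and Fxyd4, NHE3 (Slc9a3) and NHE8 (Slc9a8), NBCe1 (Slc4a4) and the potassium channel subunits Kir4.2 (Kcnj15) and Kir5.1 (Kcnj16). The label names the pump and the exchangers, but the genes also include a bicarbonate cotransporter and potassium channel subunits.

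In these libraries 1 CPM stood for 64.4 to 90.4 reads. Summed levels of marker genes for the proximal tubule, the thick ascending limb, the distal convoluted tubule, principal cells and intercalated cells were well above 0 in all 9 libraries, with the distal marker Pvalb at 0 in all. In whole tissue, fewer cells of a type and less RNA per cell cannot be told apart.

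In CIAKI kidneys, Slc9a3 stood at 0.415 of its control level, Kcnj15 at 0.485 and Fxyd2 at 0.761, and Atp1b1 was 1.54-fold higher (fitted folds of CPM + 1). Slc9a8, Slc4a4, Kcnj16 and Fxyd4 did not pass the test. Thus 1 of the 8 genes rose and 3 fell (4 of 8, 50%), where 41.3% of all tested features were called, 20.8% higher and 20.5% lower. This share is near that of all features, so the count says nothing particular about these genes. With icariin the same 4 genes differed from CIAKI in the opposite direction, 3 higher and 1 lower, where 39.4% of all features were called, 19.2% higher and 20.2% lower. None of the 8 was called between icariin and control. The first pair of comparisons shares the CIAKI libraries, so their opposite signs are not independent of each other.

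**Figure D1:**
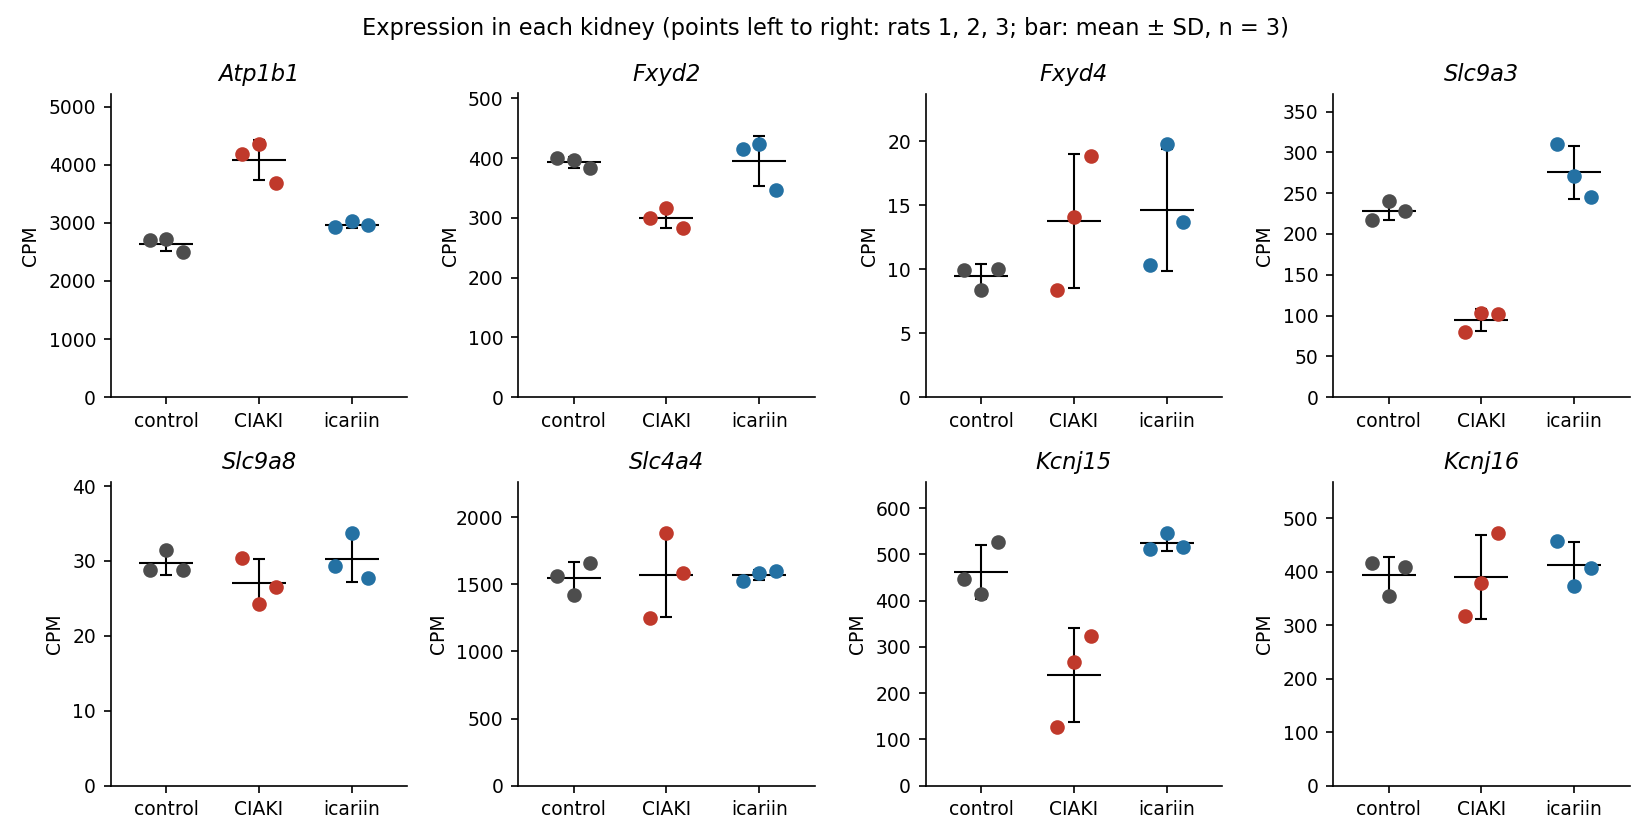
Expression in CPM (linear axis from 0) of the 8 genes in each of 9 rat kidneys; points are rats 1, 2 and 3 from left to right and bars give the mean ± SD (n = 3). The CIAKI kidneys lie apart from both other groups for Atp1b1, Fxyd2, Slc9a3 and Kcnj15, and among them for Fxyd4, Slc9a8, Slc4a4 and Kcnj16.

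The genes with the largest decreases in CIAKI were Slc9a3 and Kcnj15, and their promoters are shown to place both side by side. A promoter was present in the RefSeq table (build GRCr8) for 6 of the 8 genes. The 250 bases before the RefSeq start are printed 5′ to 3′ on the gene's strand, with capitals for letters that match any of 4 motifs, searched on both strands. A GC box was read as GGGCGG, and 30.5% of all 33469 promoter windows of this length in the table held one. An E-box was read as CACGTG (5.59% of all windows), a CCAAT box by the letters of its name (34%) and a TATA box as TATAAA (12.9%). The Slc9a3 sequence is chr1:30996003-30996252 on the minus strand and the Kcnj15 sequence is chr11:48070700-48070949 on the plus strand.
Slc9a3: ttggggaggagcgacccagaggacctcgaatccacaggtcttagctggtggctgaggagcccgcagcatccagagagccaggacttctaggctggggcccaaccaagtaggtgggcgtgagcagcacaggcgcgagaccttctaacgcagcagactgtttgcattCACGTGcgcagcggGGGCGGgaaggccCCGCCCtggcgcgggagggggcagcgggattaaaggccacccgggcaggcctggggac
Kcnj15: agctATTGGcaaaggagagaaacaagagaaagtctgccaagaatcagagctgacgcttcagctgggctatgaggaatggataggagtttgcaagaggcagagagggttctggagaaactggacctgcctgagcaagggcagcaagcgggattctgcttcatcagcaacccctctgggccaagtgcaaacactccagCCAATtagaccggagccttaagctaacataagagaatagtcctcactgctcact
Slc9a3 held an E-box whose first base lies 85 bases before the start and GC boxes at 71 and 58 bases, while Kcnj15 held CCAAT boxes at 246 and 54 bases and neither of the other kinds. The promoter of Kcnj16, which was not called, also held CCAAT boxes, at 136 and 109 bases. GC boxes also lay in the promoters of Fxyd4 (61 bases) and Slc9a8 (70 bases), neither of them called, and Slc9a8 held a CCAAT box at 126 bases. The printed windows thus share none of the 4 motifs, which describes their letters only.

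Slc9a3 encodes NHE3, the main luminal sodium-proton exchanger of the proximal tubule. It stood at 216.5, 240.1 and 228.5 CPM in control kidneys, at 79.4, 102.9 and 101.6 CPM in CIAKI kidneys and at 310.1, 270.7 and 245.9 CPM in icariin kidneys. Every CIAKI kidney lay below every other kidney, and every icariin kidney lay above every control kidney. The log2 fold change on the CPM + 1 scale was -1.27 in CIAKI against control (SE 0.12, limma adjusted p = 9.9e-05). Icariin kidneys lay 1.53 above CIAKI (SE 0.12, 95% interval 1.27 to 1.80, limma adjusted p = 6.3e-05). Against control they lay at 0.26 (interval 0.00 to 0.53, limma adjusted p = 0.49), which did not pass although the groups did not overlap.

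Slc9a8 encodes NHE8, an exchanger of the brush border and of intracellular compartments. Its levels were 28.8, 31.5 and 28.8 CPM in control, 30.4, 24.3 and 26.5 CPM in CIAKI and 29.4, 33.8 and 27.7 CPM in icariin kidneys. The groups overlapped throughout. The log2 fold change was -0.13 in CIAKI against control (interval -0.37 to 0.11) and 0.16 in icariin against CIAKI (interval -0.08 to 0.40), so changes of the size seen for Slc9a3 lie outside these intervals.

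Atp1b1 encodes the beta1 subunit, which brings the pump to the membrane. It was measured at 2700.3, 2718.0 and 2496.5 CPM in control, 4181.1, 4354.4 and 3688.8 CPM in CIAKI and 2923.2, 3033.5 and 2955.7 CPM in icariin kidneys. Controls were lowest, icariin kidneys next and CIAKI kidneys highest, with no overlap between any pair of groups. The gene rose in CIAKI by 0.62 on the log2 scale (SE 0.12, limma adjusted p = 0.003) and was lower with icariin than in CIAKI, at -0.45 (SE 0.12, limma adjusted p = 0.015). The latter call ended when no filter on low values was applied (adjusted p = 0.0502). Icariin and control kidneys differed by 0.17 (interval -0.09 to 0.44, limma adjusted p = 0.72).

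Fxyd2 encodes the gamma subunit, which lowers the pump's affinity for sodium. Control kidneys held 400.8, 396.6 and 383.1 CPM, CIAKI kidneys 299.2, 316.6 and 282.8 CPM, and icariin kidneys 415.9, 423.5 and 346.8 CPM. All CIAKI values lay below all others, while icariin and control kidneys overlapped. It fell by 0.39 on the log2 scale in CIAKI (SE 0.09, limma adjusted p = 0.0069) and was higher with icariin than in CIAKI by 0.40 (SE 0.09, limma adjusted p = 0.0072). The difference between icariin and control was 0.00 (interval -0.20 to 0.20).

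Fxyd4 encodes CHIF, which raises the pump's affinity for sodium in the collecting duct. Its levels were 9.91, 8.36 and 10.1 CPM in control, 8.36, 14.1 and 18.8 CPM in CIAKI and 10.3, 19.8 and 13.7 CPM in icariin kidneys. The spread was wide in both treated groups, with an SD of 38.1% and 32.7% of the mean against 9.97% in control. Its log2 fold changes were 0.44 in CIAKI against control (interval -0.21 to 1.08, limma adjusted p = 0.25) and 0.54 in icariin against control (interval -0.11 to 1.19, limma adjusted p = 0.6). Without CIAKI 1 the first value was 0.73 (adjusted p = 0.0504), without CIAKI 3 it was 0.19, and without icariin 2 the second was 0.31. Every icariin kidney lay above every control kidney. Even the lowest value of Fxyd4 rested on 582 reads, so counting error is small beside the spread between rats.

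Slc4a4 encodes NBCe1, the basolateral sodium-bicarbonate cotransporter of the proximal tubule. It was found at 1561.1, 1417.9 and 1662.3 CPM in control, 1250.5, 1886.0 and 1582.5 CPM in CIAKI and 1526.6, 1582.3 and 1602.6 CPM in icariin kidneys. Group means were 1547 ± 122.8, 1573 ± 317.9 and 1571 ± 39.3 CPM (SD, n = 3 each), and the CIAKI kidneys spanned the other groups on both sides. The log2 fold change was 0.01 in CIAKI against control (interval -0.32 to 0.34, limma adjusted p = 0.97) and 0.02 in icariin against CIAKI (interval -0.31 to 0.35).

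Kcnj15 encodes Kir4.2, a basolateral potassium channel subunit of the proximal tubule. Control kidneys held 446.4, 413.6 and 527.3 CPM, CIAKI kidneys 127.3, 268.4 and 322.7 CPM, and icariin kidneys 512.4, 547.1 and 516.8 CPM. CIAKI kidneys lay below all others, and CIAKI 1 lay far below the other 2 CIAKI kidneys. The SD was 42.1% of the mean in CIAKI, 12.7% in control and 3.59% in icariin kidneys. The log2 fold change was -1.04 in CIAKI against control (SE 0.28, interval -1.69 to -0.40, limma adjusted p = 0.017) and 1.23 in icariin against CIAKI (SE 0.28, interval 0.59 to 1.88, limma adjusted p = 0.0084). Without CIAKI 1 these values were -0.64 and 0.83, both still called, and the first call ended without control 3 (-0.95, adjusted p = 0.0558).

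Kcnj16 encodes Kir5.1, which forms channels with Kir4.2 in the proximal tubule and with Kir4.1 in the distal nephron. Its levels were 417.3, 353.9 and 408.6 CPM in control, 316.7, 379.9 and 473.4 CPM in CIAKI and 458.3, 373.2 and 406.3 CPM in icariin kidneys. The 3 groups overlapped. The log2 fold changes were -0.03 (interval -0.35 to 0.30) in CIAKI against control, 0.10 (interval -0.23 to 0.42) in icariin against CIAKI and 0.07 (interval -0.26 to 0.39) in icariin against control.

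**Figure D2:**
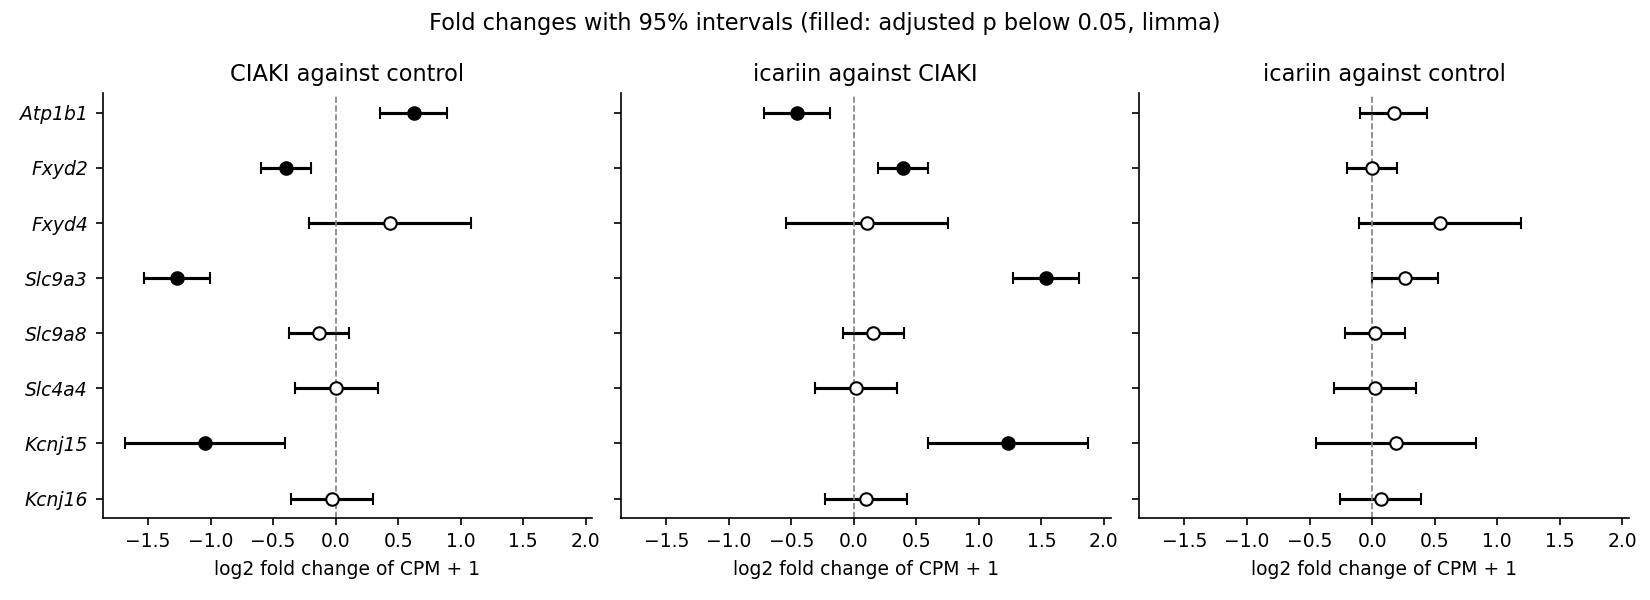
Log2 fold changes of CPM + 1 for the 8 genes in 3 comparisons, with 95% intervals from the limma fit; filled points had an adjusted p below 0.05. Slc9a3 lies at -1.27 and 1.53 in the left and middle panels, Kcnj15 has the wide intervals of a gene with a large spread, and no point is filled for icariin against control.

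CIAKI and control kidneys did not overlap for 4 of the 8 genes, against 53.4% of all tested features, and icariin and CIAKI kidneys for 4 of 8, against 50.7%. edgeR on whole reads called the same number, 4 of 8, in each of these comparisons (42% and 40.3% of all features), as did DESeq2 (46.7% and 45.5%). The median log2 fold change of the 8 genes was -0.08 in CIAKI against control and 0.13 in icariin against CIAKI, against 0.00 and 0.02 over all features. Between icariin and control, limma called 0 of the 8 genes (0.628% of all features), and 0 of 8 had an unadjusted p below 0.05 (10.2% of all features). Likewise edgeR called 0 of 8 (0.454% of all) and DESeq2 0 of 8 (3.14%). Counted in both directions, icariin and control kidneys did not overlap for 3 of the 8 genes, against 19.3% of all features. In these 3, Slc9a3, Atp1b1 and Fxyd4, the icariin kidneys lay wholly above the controls. The share of all features in that direction alone was not computed.

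Since several of the proteins work as complexes, the genes were also set against each other within each kidney. A ratio of CPM carries the lengths of both genes, so it is compared between kidneys only, and the pairs were chosen with the values known, with no test. Fxyd2 over Atp1b1 was 0.148, 0.146 and 0.153 in control, 0.0716, 0.0727 and 0.0767 in CIAKI and 0.142, 0.140 and 0.117 in icariin kidneys. Relative to the beta1 subunit, the gamma subunit transcript was thus lowest in CIAKI, and the 3 groups did not overlap. Atp1b1 over the beta3 subunit gene Atp1b3 ranged from 21.0 to 24.4 in control, from 21.8 to 25.9 in CIAKI and from 24.0 to 26.2 in icariin kidneys, so these groups overlapped. Kcnj15 over Kcnj16 was 1.18 ± 0.11 in control, 0.597 ± 0.169 in CIAKI and 1.29 ± 0.174 in icariin kidneys (SD, n = 3 each). Slc4a4 over Slc9a3, basolateral bicarbonate exit against luminal proton exchange, was 6.8 ± 0.772, 16.6 ± 1.54 and 5.76 ± 0.801 in the same order. These last ratios separated CIAKI from both other groups in all kidneys.

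**Figure D3:**
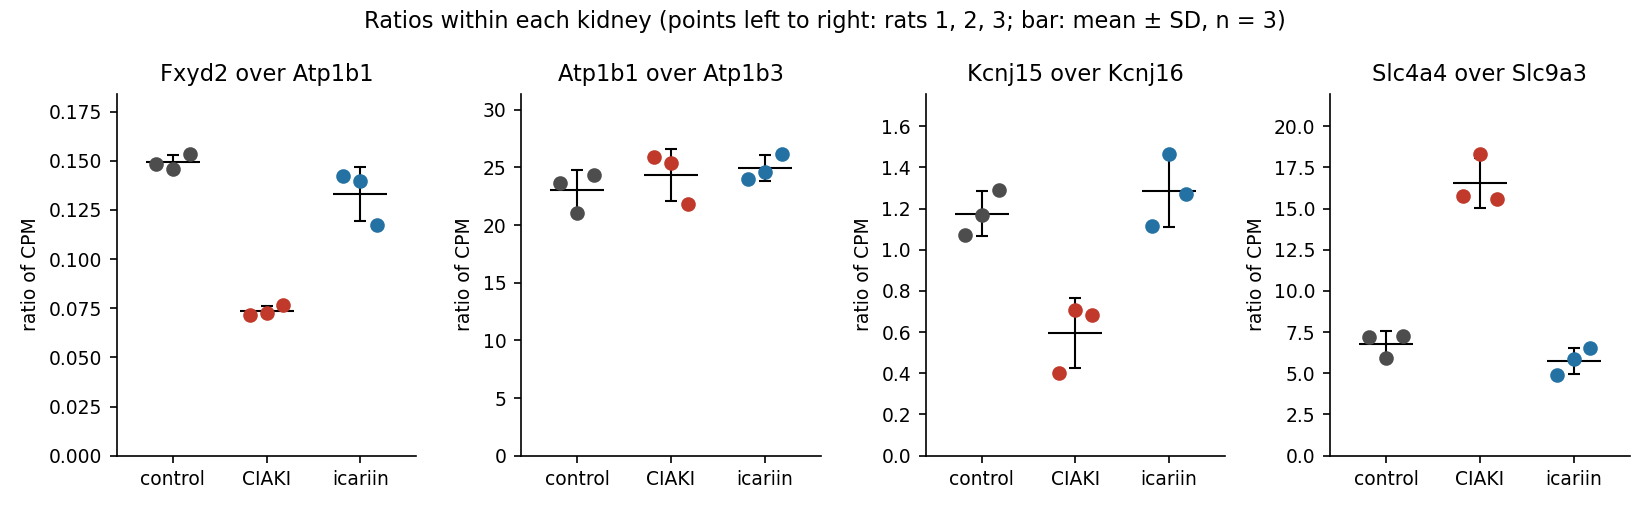
Ratios of CPM within each of 9 kidneys (linear axes from 0) for Fxyd2 over Atp1b1, Atp1b1 over Atp1b3, Kcnj15 over Kcnj16 and Slc4a4 over Slc9a3; points are rats 1, 2 and 3 from left to right and bars give the mean ± SD (n = 3). The ratio Fxyd2 over Atp1b1 lies at 0.0716 to 0.0767 in CIAKI kidneys and above that in all others.

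Among further pump subunit genes, Atp1b3 rose in CIAKI, from 115.4 ± 13.5 to 167.4 ± 5.18 CPM (log2 fold change 0.54, limma adjusted p = 0.0014), and stood at 119.3 ± 5.59 CPM with icariin (-0.49 against CIAKI, limma adjusted p = 0.0026). The low genes Atp1a4 and Atp1b2, the latter also a beta subunit gene, fell in CIAKI, by 0.84 and 0.56 on the log2 scale. Atp1a4 was higher with icariin than in CIAKI (1.17), and Atp1b2 was not called there (0.44, limma adjusted p = 0.094, but 0.0206 without icariin 3 and 0.042 in DESeq2). The Atp1b2 call in CIAKI ended without control 1, control 3, icariin 1 or any CIAKI kidney (adjusted p up to 0.137), without a filter (0.0722), with quantile normalization (0.0827) and with a replicate block (0.0681). Of 4 further subunit genes described, 1 rose and 2 fell in CIAKI, and among the beta subunit genes Atp1b1 and Atp1b3 rose while Atp1b2 fell.

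Of 3 further FXYD genes tested, Fxyd1 and Fxyd6 fell in CIAKI (-0.51 and -0.46) and Fxyd5 was not called (-0.03). The call of Fxyd1 ended without control 3 or CIAKI 1 (adjusted p = 0.0563 and 0.0547), with quantile normalization (0.136) and without a filter (0.0526). That of Fxyd6 ended without control 1, control 2, icariin 2 or any CIAKI kidney (adjusted p up to 0.124) and without a filter (0.0627). With icariin against CIAKI, Fxyd6 was called at 0.44, and this ended without control 1, icariin 1, icariin 2 or any CIAKI kidney (adjusted p up to 0.146) and without a filter (0.0784). Fxyd3 and Fxyd7 were too low to be tested.

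Of 4 further sodium-proton exchanger genes described and tested, 3 fell in CIAKI and none rose. Slc9a9, an exchanger of endosomes, went from 8.41 ± 0.739 to 3.19 ± 0.321 CPM (-1.17, limma adjusted p = 0.00067). Slc9a2 lay at -1.10 and the basolateral exchanger gene Slc9a4 at -0.86. All 3 were higher with icariin than in CIAKI, by 0.92, 0.66 and 0.79. Slc9a7 was not called in CIAKI (-0.07), as Slc9a8 was not.

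Genes whose products bind or regulate NHE3 moved in different directions. Pdzk1, a scaffold of the brush border, fell from 693.6 ± 55.7 to 344.9 ± 99.1 CPM in CIAKI (-1.05, limma adjusted p = 0.0023) and stood at 751.9 ± 38.5 CPM with icariin. Chp1, a calcium-binding cofactor of sodium-proton exchangers, rose by 0.48, and Ahcyl1, the regulator IRBIT, by 0.29, the latter call ending without control 1 (adjusted p = 0.0564). Both were lower with icariin than in CIAKI (-0.39 and -0.28), and that of Ahcyl1 ended without icariin 1 (0.0698) or with only the 6 libraries compared (0.0534). The scaffold gene Slc9a3r2 lay at -0.32 in CIAKI (limma adjusted p = 0.086, but 0.0358 without control 2 and 0.0409 with upper-quartile scaling) and was higher with icariin than in CIAKI by 0.72. The related Slc9a3r1 was at -0.29 (limma adjusted p = 0.052) and 0.35 (0.026) in the same comparisons. It passed in CIAKI without CIAKI 2 (0.0323) or icariin 1 (0.04995), with a replicate block (0.0387), upper-quartile scaling (0.0249), quantile normalization (0.0334) or a filter at 5 CPM (0.0482). Its call with icariin ended without CIAKI 1, icariin 2 or icariin 3 (adjusted p up to 0.0919) and with only the 6 libraries compared (0.0618). Sgk1, a kinase that stimulates NHE3, was not called in either.

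Of 9 further genes of the Slc4 family, most of whose members carry bicarbonate, only Slc4a5 was called in CIAKI. It stood at 6.58 ± 1.49 CPM in control, 0.884 ± 0.819 CPM in CIAKI and 4.02 ± 1.32 CPM in icariin kidneys (-2.08, limma adjusted p = 0.00099, and 1.47, limma adjusted p = 0.0057). Slc4a10 and Slc4a7 lay at -0.92 and 0.88 without passing in CIAKI (limma adjusted p = 0.07 and 0.083). Slc4a10 passed without CIAKI 2 (0.0293) or icariin 1 (0.0496) and in DESeq2 (0.0462), and Slc4a7 passed without CIAKI 3 (0.0279), with a replicate block (0.0471) and in DESeq2 (0.0174). Slc4a11 was not called with icariin against CIAKI (0.78, limma adjusted p = 0.15), but passed without icariin 3 (1.21, adjusted p = 0.0212).

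Among 8 further inward rectifier genes, 4 fell and 1 rose in CIAKI. Kcnj10, which encodes the distal partner Kir4.1 of Kir5.1, went from 28.5 ± 2.1 to 16.2 ± 1.24 CPM (-0.78, limma adjusted p = 0.0031) and stood at 25.2 ± 5.32 CPM with icariin. Kcnj13 and Kcnj12 lay at -1.62 and -1.14 in CIAKI, and at 1.39 and 0.80 with icariin against CIAKI. The latter Kcnj12 call ended without CIAKI 1, CIAKI 2 or any icariin kidney (adjusted p up to 0.0913), in edgeR (0.0592), without a filter (0.0571) and with only the 6 libraries compared (0.0635). Thus both genes that encode partners of Kir5.1, Kcnj15 and Kcnj10, were lower in CIAKI while Kcnj16 was not called.

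Carbonic anhydrases supply the protons and bicarbonate that these transporters carry. Car14, a membrane-bound form, went from 42.8 ± 5.41 to 9.46 ± 4.13 CPM in CIAKI (-2.15, limma adjusted p = 0.00048) and stood at 44.6 ± 5.04 CPM with icariin (2.21 against CIAKI). Car12 fell by 0.45, while Car15 and Car4 rose in CIAKI, by 0.94 and 0.57. Car4, the luminal form, was also higher with icariin than in CIAKI (0.36), a call that ended without CIAKI 1 or icariin 1 (adjusted p = 0.052 and 0.061). Car2, the cytosolic form, lay at -0.31 in CIAKI (limma adjusted p = 0.053, but 0.021 without CIAKI 2, 0.0332 with upper-quartile scaling and 0.0493 with a filter at 5 CPM) and 0.39 with icariin against CIAKI, which ended without icariin 1 or icariin 3 (0.077 and 0.0576) or with only the 6 libraries compared (0.0555). Car4 and Car15 were the only list genes called between icariin and control, at 0.93 (limma adjusted p = 0.0054) and 1.27 (0.028). The Car15 call ended without any single control kidney (adjusted p up to 0.121) and without a filter (0.0559).

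Over the 7 lists, 42 of 45 further genes were tested. In CIAKI against control 6 were higher and 15 lower (50%), in icariin against CIAKI 15 were higher and 3 lower (42.9%), and in icariin against control 2 were higher and none lower (4.76%). Over all tested features the shares called were 41.3%, 39.4% and 0.628%, with higher and lower calls about equal in the first pair. The median log2 fold changes of the list genes were -0.27, 0.32 and -0.01, against -0.00, 0.02 and -0.00 over all features, and nothing particular to transport genes was tested.

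**Figure D4:**
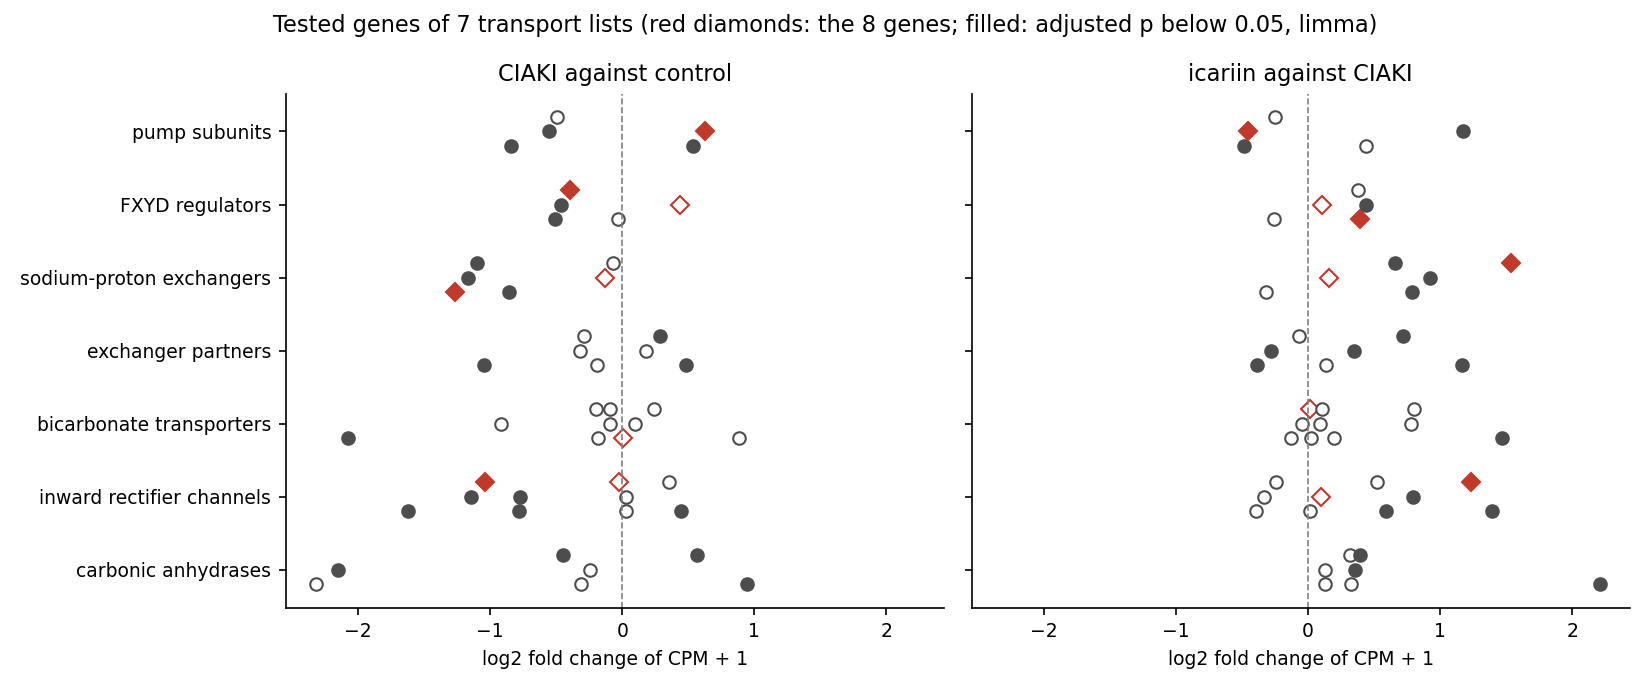
Log2 fold changes of CPM + 1 of every tested gene in 7 lists of related transport genes, for CIAKI against control (left) and icariin against CIAKI (right); red diamonds are the 8 genes, grey circles the others, and filled symbols had a limma adjusted p below 0.05. No sodium-proton exchanger gene has a filled symbol to the right of 0 in the left panel, and pump subunits have filled symbols on both sides.

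Marker genes of tubule segments differed between the groups as well. Of 10 proximal tubule markers 8 fell in CIAKI and none rose. Cubn (mean of 1763 CPM in control and 1604 CPM in CIAKI) and Slc5a12 (440 and 544.2 CPM) were not called. The summed level of all 10 was 21662 to 24682 CPM in control, 8122 to 11335 CPM in CIAKI and 20896 to 23082 CPM in icariin kidneys, with none at 0. Its largest parts in control were Lrp2 (mean of 10980 CPM, and 4881 CPM in CIAKI) and Slc34a1 (4731 and 993.9 CPM), so the sum depends mostly on these genes. Per 1000 CPM of this sum, Slc9a3 stood at 9.78 ± 1.14 in control, 9.79 ± 0.832 in CIAKI and 12.5 ± 2.15 in icariin kidneys (SD, n = 3 each), and Kcnj15 at 19.7 ± 1.49, 24 ± 7.18 and 23.7 ± 1.13. On the same scale Kcnj16 stood at 16.8 ± 0.526, 40 ± 1.54 and 18.7 ± 2.89, and Slc4a4 at 65.9 ± 1.3, 163 ± 28.6 and 70.7 ± 2.01. Fxyd2, which was lower in CIAKI by CPM, stood higher on this scale, at 16.8 ± 1.4, 31.5 ± 6.03 and 17.9 ± 2.54. Atp1b1 went from 112.9 ± 12.2 to 429.9 ± 96.2, Slc9a8 from 1.27 ± 0.157 to 2.87 ± 0.77 and Fxyd4 from 0.402 ± 0.0138 to 1.38 ± 0.323 between control and CIAKI. Slc9a3 and Kcnj15 in CIAKI kidneys thus overlapped the controls, whereas every CIAKI value of the other 6 genes lay above every control. The sum itself was lower in CIAKI, so a gene that fell less than the sum, or did not fall, stands higher here by construction. This split therefore restates the differences in CPM, and not all 8 genes are confined to the proximal tubule. The part of the proximal tubule markers in the results was not tested.

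Of 5 markers of the thick ascending limb, which also expresses Slc9a3 and Fxyd2, 3 fell in CIAKI. Slc12a1 (mean of 1483 CPM in control and 2170 CPM in CIAKI) and Cldn16 (74.43 and 57.65 CPM) were not called. Sums of all 5 were 4076 to 6785 CPM in control, 3612 to 5242 CPM in CIAKI and 5271 to 6442 CPM in icariin kidneys. None of the 5 was at 0. The largest parts in control were Umod (3066 CPM, and 1764 CPM in CIAKI) and Slc12a1, which moved in opposite directions. For the distal convoluted tubule, 2 of 4 tested markers fell in CIAKI, with sums of 1295 to 1413, 786.9 to 874.7 and 760.4 to 922.7 CPM. Principal cell markers, beside Fxyd4, summed to 650.2 to 724.5 CPM in control, 611 to 988.8 CPM in CIAKI and 892.8 to 1170 CPM in icariin kidneys, with 2 of 6 higher and 3 lower in CIAKI and none at 0. This sum mixes Aqp2 and Aqp3, which rose in CIAKI (0.90 and 0.59), with Avpr2, Scnn1b and Scnn1g, which fell (-1.31, -0.60 and -0.43). Hsd11b2, also part of it, was not called (-0.32). CIAKI 1 had the lowest principal cell sum of all kidneys, 611 CPM, and shared the lowest Fxyd4 level with control 2. Intercalated cell markers summed to 364.7 to 428.2, 244.5 to 326.2 and 324.3 to 371.1 CPM, with 2 of 5 lower in CIAKI. Their part in the levels of Fxyd2, Fxyd4 and Slc9a3 was not tested either.

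**Figure D5:**
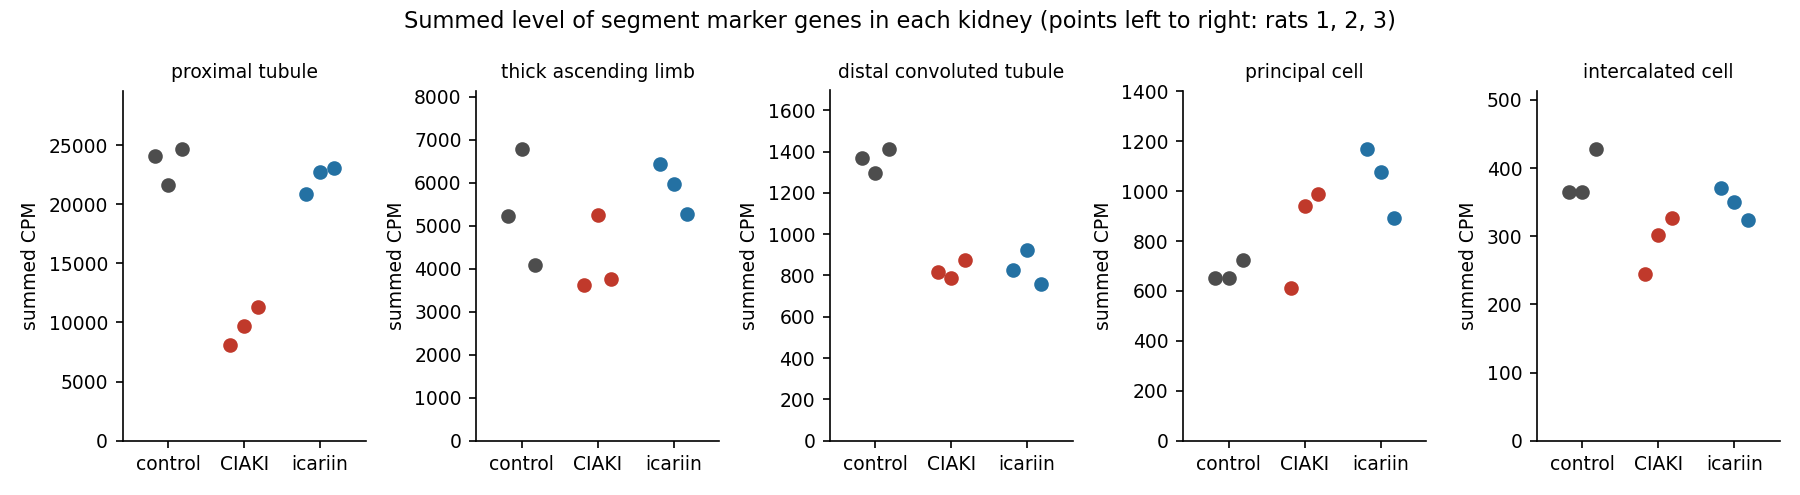
Summed CPM (linear axes from 0) of marker genes of 5 tubule segments or cell types in each of 9 kidneys; points are rats 1, 2 and 3 from left to right. The proximal tubule sums lie at 8122 to 11335 CPM in CIAKI kidneys and at 20896 CPM or more in all others.

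Markers of other cells were also lower or higher in CIAKI. All 4 podocyte markers fell (sums of 720.4 to 778.9 CPM in control, 469.7 to 482.5 in CIAKI and 573.3 to 729.5 with icariin), as did 2 of 3 endothelial markers (213.6 to 248.8, 144.1 to 162.4 and 204.4 to 254.6 CPM). Macrophage sums were 76.9 to 86.1, 35.6 to 46.5 and 61.8 to 85.4 CPM (2 of 4 lower), lymphocyte sums 22.1 to 24.9, 5.62 to 9.22 and 12.8 to 22.8 CPM (3 of 3 tested lower), and mesenchymal sums 243.1 to 396.6, 201.8 to 243.3 and 168 to 282.3 CPM (1 of 3 lower and 1 higher). Erythroid sums were higher in CIAKI, at 210.5 to 582.3, 820.9 to 975.5 and 282.3 to 590.4 CPM (1 of 3 higher). The erythroid list shares Slc4a1 with the bicarbonate list.

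The CIAKI kidneys also differed among themselves. The tubular injury marker Havcr1 stood at 742 CPM in CIAKI 1, 419 CPM in CIAKI 2 and 229 CPM in CIAKI 3, and at 0.529 to 2.63 CPM in the 6 other kidneys. Lcn2, another injury marker, stood at 57.7, 82.6 and 28.2 CPM in CIAKI 1, 2 and 3 and at 2.05 to 4.08 CPM in the others, so the markers place different kidneys highest. Over the same 3 kidneys Kcnj15 stood at 127.3, 268.4 and 322.7 CPM, Kcnj16 at 316.7, 379.9 and 473.4 CPM and Fxyd4 at 8.36, 14.1 and 18.8 CPM. Among the CIAKI kidneys, CIAKI 1 was thus the highest in Havcr1 and the lowest in these 3 genes, as well as in Slc9a3 and Slc4a4. It was the highest in Slc9a8, while Atp1b1 and Fxyd2 were lowest in CIAKI 3 and Lcn2 was highest in CIAKI 2. With 3 kidneys this is a description only.

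Levels of different genes can be compared per length only where the authors give FPKM, a read count scaled to both gene length and library total, which they deposited for CIAKI and icariin kidneys of selected genes, among them 2 of the 8. Kcnj15 stood at 64.3, 140.0 and 169.4 FPKM in CIAKI and at 270.1, 286.3 and 277.9 FPKM in icariin kidneys. Slc9a3 stood at 11.6, 15.5 and 15.4 FPKM and at 47.1, 40.8 and 38.1 FPKM. Per length, Kcnj15 was the more abundant transcript in each kidney, 5.57 to 11-fold in CIAKI and 5.74 to 7.3-fold with icariin.

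Over the 9 kidneys, the log2 levels of Slc9a3 followed those of Fxyd2 (Pearson r = 0.91) and Kcnj15 (r = 0.90), and ran against those of Atp1b1 (r = -0.87). Within groups, after each group's mean was removed, these values were 0.41, 0.68 and -0.19, so the larger values rest mostly on differences between groups. Kcnj15 and Kcnj16 were at 0.57 over all kidneys and 0.77 within groups, and Slc4a4 and Kcnj15 at 0.46 and 0.81. The within-group spread of Kcnj15 lay mostly in CIAKI, with an SD of 42.1% of the mean against 12.7% in control and 3.59% in icariin kidneys. Among the CIAKI kidneys, CIAKI 1 was the lowest in Kcnj15, Kcnj16 and Slc4a4, so these within-group values lean on that kidney. Each value is over 9 libraries that differ in treatment, and is a description.

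Among 12419 other named genes, those most like Slc9a3 over the 9 kidneys were Galm, which encodes a sugar mutarotase, and Ddo, which encodes D-aspartate oxidase (r = 0.99 each). Closest to Kcnj15 were Vil1, which encodes the microvillus protein villin (r = 0.98), and L3hypdh (r = 0.98). Atp1b1 was most like Phyh, a peroxisomal hydroxylase gene, and Polr1c, an RNA polymerase subunit gene (r = 0.99 each), and Fxyd2 was most like Slc44a2 and Arc (r = 0.99 each). For Slc9a8 these were Steap3 (r = 0.99) and Kif15 (r = 0.97), for Slc4a4 Arhgap9 (r = 0.91) and Gfm1 (r = 0.88), for Kcnj16 Tpm2 (r = 0.91) and Aldh1a1 (r = 0.90) and for Fxyd4 Gucy2g (r = 0.92) and Hadhb (r = 0.88). Genes that were called in CIAKI thus had closer matches than Slc4a4, Kcnj16 and Fxyd4, with Slc9a8 as the exception. A called gene shares a group difference with many others, as 41.3% of all tested features were called in CIAKI. Each match is also the highest of 12419 values over only 9 kidneys, so a high r says nothing particular about either gene.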

How the data were processed

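Kidney RNA of 9 rats was sequenced, with 3 separate rats per group by the series design. Libraries were made from total RNA with a TruSeq kit, per the labels' protocols. Bowtie 0.12.2 and the build mm8, a mouse build, are named per the submitters' processing notes, while the identifiers are rat Ensembl genes. The reference used, read counter and strand setting were not given in the sources used here, so overlapping genes cannot be told apart. The main table holds CPM, deposited by the authors. Each library's values were whole multiples of 1 step, and 100% of values (within 0.1) gave whole reads, which equalled all 23850 read counts the authors deposited for selected mRNAs. The authors also deposited FPKM for these. A value of 1 CPM stood for 64.4 to 90.4 reads, so counting error was small for the 8 genes (582 reads or more).

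Groups were compared with limma 3.58.1 (intensity trend) on log2(CPM + 1) over all 9 libraries and the 16731 features that reached 1 CPM in 3 or more libraries, two-sided, with Benjamini-Hochberg adjustment over all features and calls below 0.05. edgeR 4.0.16 (quasi-likelihood) called 7028, 6745 and 76 features in the 3 comparisons on recovered reads, and DESeq2 1.42.0 was run on the same reads. The fits were tested on simulated data with a single fixed spread and few changed features. The real data differ in both, so the error rates of the fits here were not tested. Named genes were the 8, up to 3 per transport list with the smallest p in each of the first 2 comparisons, list genes called in the third, and the 2 genes most correlated with each of the 8. Other list genes, among them those not called and the ratio partners, were named after their values were seen. Some genes of the lists are not reported here and were left out of their counts. The members, lists and motifs were chosen with earlier results of these data known. Same-numbered rats of different groups were not treated as pairs, as the labels name no pairing.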

Additional observations from a re-analysis of the deposited data

How the results depend on the processing

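The 8 genes gave 24 results, each recomputed under 20 alternatives, and 478 of 480 kept both their direction, where called, and their side of the threshold. The exceptions were Kcnj15 in CIAKI against control without control 3 (-0.95, adjusted p = 0.0558) and Atp1b1 in icariin against CIAKI without a filter on low values (-0.45, adjusted p = 0.0502). Of 1662 recomputed values of the other named list genes, 51 lost and 25 gained a call, and no called value changed sign. The count of all features called between icariin and control was 105, against 52 without a filter and 524 with DESeq2. It was 30 to 60 without any 1 of the control or icariin libraries and 130 without CIAKI 1. With only the 6 libraries compared, 98 features were called higher and 46 lower. The cause of these differences was not tested. The labels give no pairing by replicate number. Deviations of same-numbered kidneys correlated at -0.035 to 0.081, and those of different-numbered kidneys at -0.102 to 0.036. The ranges overlap, with the highest values in same-numbered pairs, and do not settle whether the numbers carry pairing. With the replicate number as a block, 6678, 6314 and 73 features were called, and 4, 4 and 0 of the 8 genes. For the 8 genes (582 reads or more), the spread between 3 rats per group, more than read number, sets the precision. Whether this holds for features near 1 CPM was not tested.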
